A study of Mus musculus with 8 samples.

Results

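The 68 genes described here were the Rab genes of mouse gastrocnemius (GAS) muscle after knockdown of MYTHO. They comprised 59 Rab GTPases and 9 regulators or effectors that carry a Rab name, namely *Rab3gap1*, *Rab3gap2*, *Rab3ip*, *Rab3il1* and *Rab11fip1* to *Rab11fip5*. Members were taken by symbol alone, from any row whose gene symbol was Rab followed by a number and lower-case letters or digits. They filled 68 of the 22206 probe sets of the array, 1 probe set per gene, out of 22664 gene symbols in all. The rows of *Rab11fip5* and *Rab4b* also name a microRNA gene, *Mir705* and *Mir3101*, and cannot separate it from the host.

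Both groups were male C57/Bl6j mice without a gene deletion, listed at 14 weeks of age and sampled 3 weeks after an adeno-associated virus (AAV) was injected into the muscle. The virus of AAV sh-RNA MYTHO expressed a hairpin that targets MYTHO mRNA, and that of AAV sh-RNA scrmb expressed a scrambled hairpin. Both hairpins were driven by the U6 promoter, which is active in most cell types, and the study describes the scrambled virus as placed in the opposite leg of the same mouse. Each group had 4 arrays of whole muscle. A number in the array names, found once per group, was read as the animal, here A to D. In whole muscle, fewer cells of a type and less RNA per cell cannot be told apart.

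Rab GTPases are small membrane switches. They bind effectors when loaded with GTP, and they mark the compartments between which vesicles travel. Exchange factors (GEFs) load them, GTPase-activating proteins (GAPs) turn them off, and escort and prenylating proteins deliver them to membranes. In muscle fibres they are known for insertion of the glucose transporter GLUT4 into the surface membrane, for receptor recycling, and for the formation of autophagosomes and their fusion with lysosomes. The comparison addressed whether the transcripts of this machinery differed when MYTHO was low.

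The targeted gene *D230025D16Rik* (*Mytho*) gave, for animals A to D in order, log2 signals of 11.35, 11.31, 10.78 and 11.05 under scrmb and 8.16, 8.20, 8.80 and 8.08 under MYTHO. It fell by 2.81 on the log2 scale (limma, adjusted p = 0.00044). Median log2 signals over all probe sets lay between 6.39 and 6.47 on the 8 arrays, and the mean over the Rab genes lay between 8.02 and 8.19. The 8 skeletal muscle markers averaged 19.1 to 19.3, so the tissue matched its label. *Acta1* and *Myh4* stood at the ceiling of the values, 19.93, on every array, where no change can show. *Myh1*, the dimmest of the 8, had a log2 fold change of 0.70 with overlapping groups (limma adjusted p = 0.295). The others lay between -0.035 and 0.06. Markers of other fibres and cells also differed in level between the groups. The mean of 8 slow-fibre markers ran from 11.61 to 13.70 in scrmb and from 11.68 to 14.88 in MYTHO, higher in every animal. Here scrmb A was the highest control and MYTHO D the lowest knockdown array. Of the 8 genes, 7 had an unadjusted p under 0.05. The mean of 4 endothelial markers (*Pecam1*, *Cdh5*, *Kdr* and *Tek*) ran from 10.27 to 10.86 in scrmb and from 11.05 to 11.28 in MYTHO. Means of 6 macrophage markers, 7.49 to 7.88 against 7.47 to 7.99, and of 5 T cell markers, 6.03 to 6.38 against 5.88 to 6.26, overlapped. The means of 4 fibroblast markers, 11.04 to 11.25 against 10.76 to 11.13, overlapped, although the MYTHO mean was the lower in every animal. Of the 4, *Dcn* (decorin), by far the brightest, had groups that did not overlap and a log2 fold change of -0.595 (limma adjusted p = 0.236), while the groups overlapped in *Lum* (0.255), *Pdgfra* (-0.22) and *Col1a1* (-0.30). Adipocyte markers (5.22 to 8.29 against 5.67 to 9.85), Schwann cell markers (5.78 to 7.32 against 5.76 to 6.48) and blood markers (10.98 to 12.97 against 11.80 to 13.96) had overlapping means. The part of the slow-fibre and endothelial markers and of *Dcn* in the Rab values was not tested. Some results are also given without scrmb A and MYTHO D. Leaving these arrays out widens the slow-fibre difference, to 11.61 to 11.94 in scrmb against 14.43 to 14.88 in MYTHO. Such values therefore do not take the slow-fibre difference out of a result.

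As a family, the Rab genes lay close to the background. No member reached an adjusted p under 0.05, against 0.027% of all probe sets (6 of 22206, limma with Benjamini-Hochberg adjustment), and none reached a 2-fold change with an unadjusted p under 0.05, against 1.51%. At an unadjusted p under 0.05 alone, 1 member was higher in MYTHO (1.47%, against 4.81% of all probe sets) and 6 were lower (8.82%, against 7.58%). With each array centred on its median, 3 were higher (4.41%, against 6.09%) and 5 lower (7.35%, against 6.34%). In 1 member the MYTHO arrays all lay above the scrmb arrays, against 2.59% of probe sets. In 4 members they all lay below (5.88%, against 3.87%). Counted by animal, 6 members were higher in 4 of 4 animals, against 8.94% of probe sets, and 9 were lower in 4 of 4 (13.2%, against 10.8%). The median log2 fold change, MYTHO minus scrmb, was -0.01 over the members and -0.005 over all probe sets. It was positive for 31 members and negative for 37, and the changes ran from -0.68 to 0.83.

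The precision of 4 arrays per group set what could be seen. The 95% interval of the change had a median half-width of 0.439 on the log2 scale, and for 63 of 68 members (92.6%) it lay within 2-fold either way, against 84.2% of all probe sets. The other 5 members, whose intervals reached past 2-fold, were *Rab11b*, *Rab27a*, *Rab40c*, *Rab32* and *Rab4a*. Replicates of the members spread a little less in scrmb than in MYTHO, with median SDs of 0.228 and 0.291, and 44 of 68 (64.7%) had the larger SD in MYTHO. Over all probe sets the median SDs were 0.298 and 0.293, and 49.5% had the larger SD in MYTHO.

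**Figure D1:**
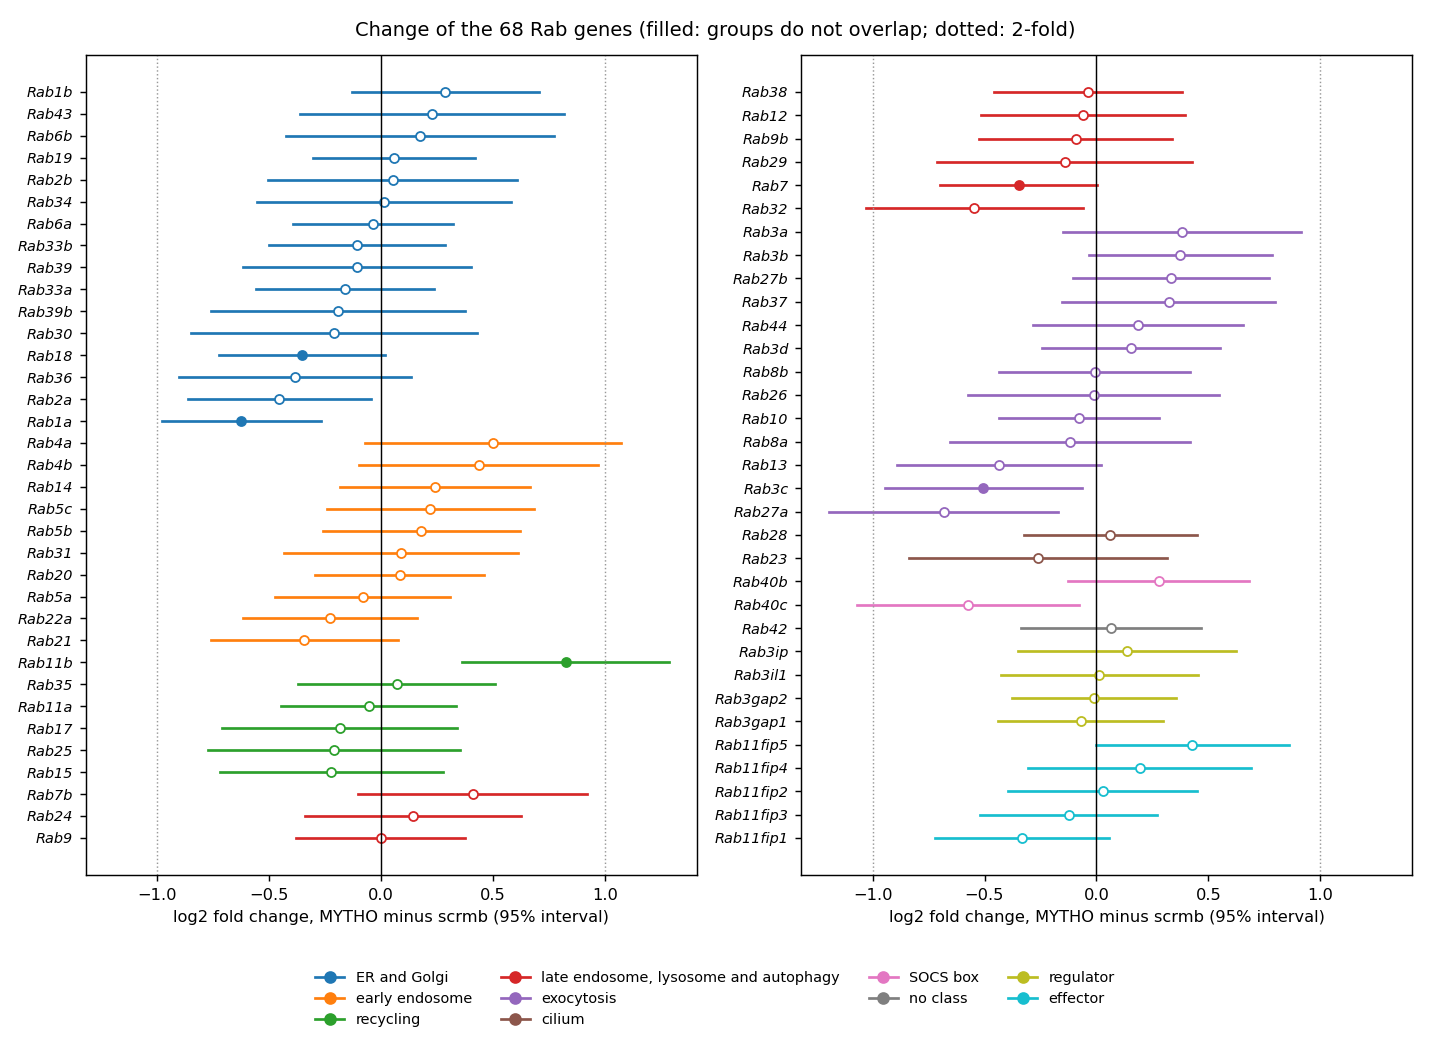
Log2 fold change (MYTHO minus scrmb) of the 68 Rab genes with its 95% interval from limma, grouped and coloured by role. Filled points are genes whose groups of 4 arrays do not overlap (*Rab11b* higher, *Rab1a*, *Rab7*, *Rab18* and *Rab3c* lower), and most intervals lie between the dotted lines at 2-fold.

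The promoters of *Rab11b*, *Rab1a* and *Rab7*, members whose groups did not overlap and whose values follow, are shown for the sequence they carry before their start. RefSeq windows were at hand for 55 of the 68 members, and the 250 bases before the transcription start are printed 5′ to 3′ on the gene's strand in GRCm38.p6. Capitals mark a match to the motifs searched on both strands. These were the E-box CACGTG, the forkhead motif GTAAACA, the cyclic AMP response element half-site TGACG and the CCAAT box CCAAT. *Rab11b* lies on chromosome 17 from 33742484 to 33760486 and its window is chr17:33760487-33760736. *Rab1a* lies on chromosome 11 from 20201412 to 20226856 with the window chr11:20201162-20201411, and *Rab7* on chromosome 6 from 87999106 to 88045270 with the window chr6:88045271-88045520. *Rab1a* is on the plus strand and the others on the minus strand.
Rab11b: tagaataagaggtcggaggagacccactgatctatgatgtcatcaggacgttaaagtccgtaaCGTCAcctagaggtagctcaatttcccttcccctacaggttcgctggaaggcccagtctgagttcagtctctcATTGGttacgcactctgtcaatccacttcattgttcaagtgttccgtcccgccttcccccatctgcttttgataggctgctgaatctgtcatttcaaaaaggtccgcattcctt
Rab1a: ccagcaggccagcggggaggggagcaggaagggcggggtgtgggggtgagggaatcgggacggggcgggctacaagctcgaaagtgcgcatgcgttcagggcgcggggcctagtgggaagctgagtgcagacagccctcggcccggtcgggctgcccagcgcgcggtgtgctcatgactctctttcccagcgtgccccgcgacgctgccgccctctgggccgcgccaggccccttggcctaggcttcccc
Rab7: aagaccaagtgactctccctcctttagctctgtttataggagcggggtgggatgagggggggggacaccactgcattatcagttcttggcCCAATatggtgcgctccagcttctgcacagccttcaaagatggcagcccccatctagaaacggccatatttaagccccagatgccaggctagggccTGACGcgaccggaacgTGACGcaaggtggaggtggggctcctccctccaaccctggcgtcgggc

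The window of *Rab11b* held a TGACG match, read as CGTCA, 187 bases before the start and a CCAAT match, read as ATTGG, 114 bases before it. *Rab7* held CCAAT 160 bases and TGACG 64 and 48 bases before its outermost annotated start, which is the one printed. The window of its other annotated start, chr6:88045018-88045267, held none of the 4 motifs, and none of the 4 motifs was found in the window of *Rab1a*. The windows also differed in composition, with a GC content of 48.4%, 72.4% and 59.2% for *Rab11b*, *Rab1a* and *Rab7*. In the 250 bases before any of a gene's annotated starts, TGACG occurred in 28 of 55 member genes (50.9%, against 19.8% of all genes), CCAAT in 47.3% (against 37.5%), CACGTG in 12.7% (against 6.86%) and GTAAACA in 3.64% (against 3.54%). TGACG contains a CG, and member windows held a median of 15 CG dinucleotides against 6 in all 32851 windows. A match describes these letters only, and the shares were not tested.

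Among recycling Rabs, *Rab11b* stood highest of all members. It encodes a Rab of the recycling endosome, which returns internalised receptors to the surface. In the order of animals A to D, which holds for all values per array, it gave log2 signals of 13.34, 13.09, 12.80 and 13.46 in scrmb and 14.25, 14.23, 13.85 and 13.66 in MYTHO. Every MYTHO array lay above every scrmb array, and the gap was narrowest in animal D. The means were 13.17 ± 0.29 and 14.00 ± 0.29 (SD, n = 4). This was a log2 fold change of 0.83 (SE 0.21), or 1.77-fold, at a limma adjusted p of 0.155. With animal as a block the adjusted p was 0.200, and it passed 0.05 only with eBayes trend and robust, at 0.0455. The two-sided exact permutation p was 0.0286, the lowest possible with unpaired relabelling of 4 against 4 arrays. Any gene with non-overlapping groups has this p. Without scrmb A and MYTHO D, which here and below also widens the slow-fibre difference, the log2 fold change of *Rab11b* was 0.99.

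The close relative *Rab11a*, also classed with the recycling Rabs, had a log2 fold change of -0.06 with a 95% interval from -0.45 to 0.34. Its log2 signals lay between 11.13 and 11.28 in scrmb and between 10.93 and 11.53 in MYTHO. The other 4 recycling Rabs, *Rab35*, *Rab17*, *Rab25* and *Rab15*, had changes between -0.22 and 0.07. Of the Rab11 family interacting proteins, which are effectors that tether Rab11 vesicles to motors and cytoskeleton, *Rab11fip5* had the highest change, 0.43 with a 95% interval just reaching 0 (-0.004 to 0.86), and was higher in 4 of 4 animals. *Rab11fip1* stood at -0.33 and was lower in 4 of 4 animals, while *Rab11fip2*, *Rab11fip3* and *Rab11fip4* lay between -0.13 and 0.19. None of the 5 effectors passed an unadjusted p of 0.05, although *Rab11fip5* did so with animal as a block (adjusted p = 0.387).

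The Rabs of the endoplasmic reticulum (ER) and Golgi included *Rab1a*, *Rab2a* and *Rab18*, each lower in 4 of 4 animals. Of 16 genes, 10 had a negative change and the median was -0.11. *Rab1a*, which drives vesicles from the ER to the Golgi and is needed early in autophagosome formation, gave 13.46, 13.56, 13.78 and 13.46 in scrmb and 12.91, 12.97, 12.90 and 12.98 in MYTHO. The groups did not overlap, and the MYTHO arrays lay close to each other (SD 0.04, against 0.15 in scrmb). Its log2 fold change was -0.63 (SE 0.16), a level 1.54-fold higher in scrmb (limma adjusted p = 0.159, exact permutation p = 0.0286). With animal as a block the adjusted p was 0.225, and without scrmb A and MYTHO D the log2 fold change was -0.67.

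*Rab2a*, which acts between Golgi and ER and in the fusion of autophagosomes with lysosomes, gave 16.18, 16.49, 16.58 and 16.41 in scrmb and 16, 15.85, 15.70 and 16.29 in MYTHO. It was lower in 4 of 4 animals, but MYTHO D lay above scrmb A. The log2 fold change was -0.46 (limma adjusted p = 0.354), with a block on animal its unadjusted p no longer passed 0.05 (adjusted p = 0.400), and without scrmb A and MYTHO D it was -0.64. *Rab18*, an ER and lipid droplet Rab whose exchange factor is formed by the products of *Rab3gap1* and *Rab3gap2*, gave 11.18, 11.32, 11.29 and 11.28 in scrmb and 10.83, 11.07, 10.67 and 11.09 in MYTHO. Its groups did not overlap, which sets the exact permutation p at 0.0286. The log2 fold change was -0.35 (limma adjusted p = 0.430) and did not pass an unadjusted p of 0.05. *Rab3gap1* and *Rab3gap2* themselves had changes of -0.07 and -0.01, with 95% intervals from -0.44 to 0.30 and from -0.38 to 0.36. *Rab33b*, a Golgi Rab that binds the autophagy protein ATG16L1, stood at -0.11 (-0.50 to 0.28).

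Among late endosomal, lysosomal and autophagy Rabs, 7 of 9 had a negative change with a median of -0.06. *Rab7*, the switch for fusion of late endosomes and autophagosomes with lysosomes, gave 18.20, 18.28, 18.23 and 18.17 in scrmb and 17.86, 17.69, 17.97 and 17.97 in MYTHO. The scrmb arrays agreed within an SD of 0.05 and all lay above the MYTHO arrays. The log2 fold change was -0.35 (SE 0.16, limma adjusted p = 0.408, exact permutation p = 0.0286), and its 95% interval, -0.70 to 0.003, touched 0. Without scrmb A and MYTHO D it was -0.39. *Rab32*, a Rab of lysosome-related organelles and mitochondria, gave 4.61, 4.87, 5.10 and 4.57 in scrmb and 4.78, 4.21, 3.88 and 4.10 in MYTHO, lower in 3 of 4 animals (log2 fold change -0.55, limma adjusted p = 0.349). These signals were among the lowest of the members. *Rab12*, which sends the transferrin receptor to lysosomes, stood at -0.06 (-0.52 to 0.40), and *Rab24*, an autophagy Rab, at 0.14 (-0.34 to 0.63).

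**Figure D2:**
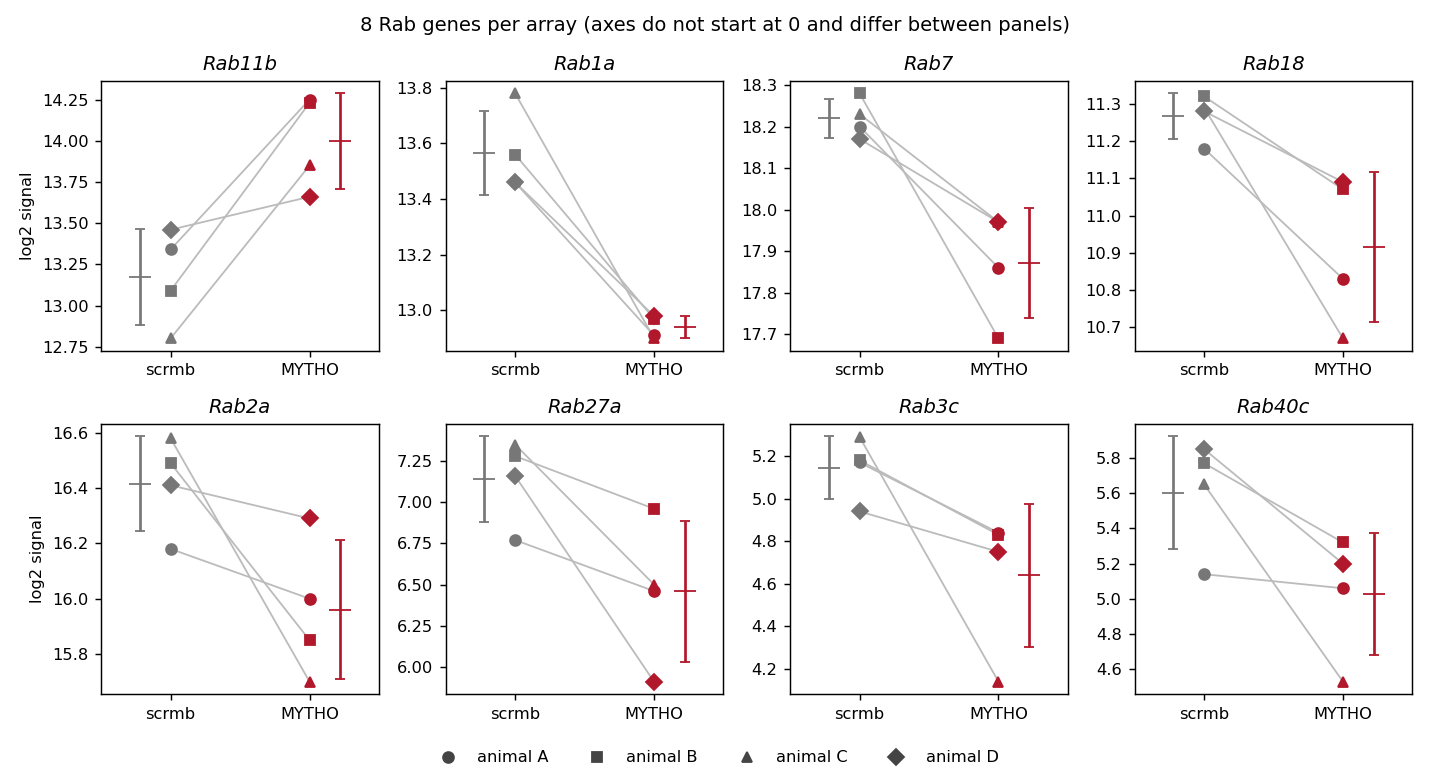
Log2 signal of 8 Rab genes on each array, with lines joining the scrmb and MYTHO arrays of the same animal and bars at the side giving the mean and SD of 4 arrays. *Rab11b* is higher and the other 7 genes are lower in MYTHO in every animal, while *Rab2a*, *Rab27a* and *Rab40c* overlap between groups.

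The exocytic Rabs had changes in both directions, with 6 of 13 changes positive and a median of -0.01. *Rab27a*, known for docking of secretory granules and lysosome-related organelles at the surface, gave 6.77, 7.28, 7.35 and 7.16 in scrmb and 6.46, 6.96, 6.50 and 5.91 in MYTHO. It was lower in 4 of 4 animals with overlapping groups, and its log2 fold change of -0.68 was the lowest of all members (limma adjusted p = 0.269). *Rab3c*, a Rab of regulated exocytosis studied mainly in neurons, gave 5.17, 5.18, 5.29 and 4.94 in scrmb and 4.84, 4.83, 4.14 and 4.75 in MYTHO. Its groups did not overlap, with MYTHO C far below the rest, and the log2 fold change was -0.51 (limma adjusted p = 0.335, exact permutation p = 0.0286). Without MYTHO C the log2 fold change was -0.34 and its unadjusted p no longer passed 0.05.

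The 3 Rabs tied to GLUT4 movement, *Rab8a*, *Rab10* and *Rab13*, did not pass the test. *Rab8a* stood at -0.12 (95% interval -0.65 to 0.42) and *Rab10* at -0.08 (-0.43 to 0.28). *Rab13* was at -0.44 (-0.89 to 0.02), with 6.90, 7.06, 6.85 and 6.65 in scrmb and 6.76, 6.09, 6.15 and 6.72 in MYTHO, where MYTHO A and D lay among the controls. *Rab40c*, whose SOCS box joins a Cullin ubiquitin ligase, gave 5.14, 5.77, 5.65 and 5.85 in scrmb and 5.06, 5.32, 4.53 and 5.20 in MYTHO, lower in 4 of 4 animals (log2 fold change -0.58, limma adjusted p = 0.332).

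Early endosomal Rabs had 7 of 10 changes positive and a median of 0.135, but none passed an unadjusted p of 0.05. *Rab5a*, which controls fusion of early endosomes, stood at -0.08 (95% interval -0.47 to 0.31), and *Rab5b* and *Rab5c* at 0.18 and 0.22. *Rab4a*, a Rab of fast recycling from early endosomes, was higher in 4 of 4 animals, with 10.00, 10.07, 9.22 and 10.31 in scrmb and 10.36, 10.90, 10.01 and 10.33 in MYTHO. Its log2 fold change was 0.50, with a step of only 0.02 in animal D and with scrmb C well below the other controls. *Rab4a* passed an unadjusted p of 0.05 with animal as a block but not without (limma adjusted p = 0.368 with the block and 0.472 without). *Rab4b*, on the row shared with *Mir3101*, stood at 0.44, and *Rab21* at -0.34, lower in 4 of 4 animals. The 2 cilium Rabs, *Rab23* and *Rab28*, had changes of -0.26 and 0.06, and *Rab42*, given no class, 0.07. The remaining Rab-named regulators, *Rab3ip* and *Rab3il1*, exchange factors for Rab8 and Rab3 proteins, stood at 0.135 and 0.01.

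Some close relatives had unequal changes, although none of these differences passed adjustment. The difference between 2 probe sets of the same array cancels what is common to the array, and its change between groups shows unequal change and not that either gene was constant. Of 21 pairs of Rab relatives compared, 5 (23.8%) had groups that did not overlap in this difference, against 9.26% of all 2278 pairs that the 68 members can form. Each of the 5 had an exact permutation p of 0.0286, the smallest that unpaired relabelling allows and one set by the non-overlap. After Benjamini-Hochberg adjustment over the 21 pairs it was 0.12. *Rab1a* had a change of -0.91 on the log2 scale relative to *Rab1b*, with -0.75, -1.51, -0.89 and -0.50 in animals A to D. *Rab1b* itself had a change of 0.29 and was higher in 4 of 4 animals, by 0.20, 0.92, 0.01 and 0.02 in animals A to D. *Rab11b* had a change of 0.88 relative to *Rab11a*, with 1.03, 0.89, 1.35 and 0.25 in animals A to D. In both pairs every animal had the same direction, and animal D the smallest step.

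The other 3 such pairs were *Rab27a* against *Rab27b* (-1.02), *Rab3b* against *Rab3c* (0.88) and *Rab40b* against *Rab40c* (0.85). Signals of *Rab3b*, *Rab3c* and *Rab40c* were low, with means of 4.995, 4.89 and 5.315 over the 8 arrays. In the *Rab27* pair the change was -0.06 in animal B and -1.95 in animal D. *Rab27b*, *Rab3b* and *Rab40b* had changes of 0.33, 0.375 and 0.28, none past an unadjusted p of 0.05. All 3 pairs include a gene already named for its lower signal, and the 5 are not independent of the values above. Within *Rab2*, *Rab4*, *Rab5*, *Rab6*, *Rab7*, *Rab8*, *Rab9*, *Rab33* and *Rab39* pairs the groups overlapped. They also overlapped in all other *Rab3* pairs, among them *Rab3a* against *Rab3c* and *Rab3c* against *Rab3d*.

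**Figure D3:**
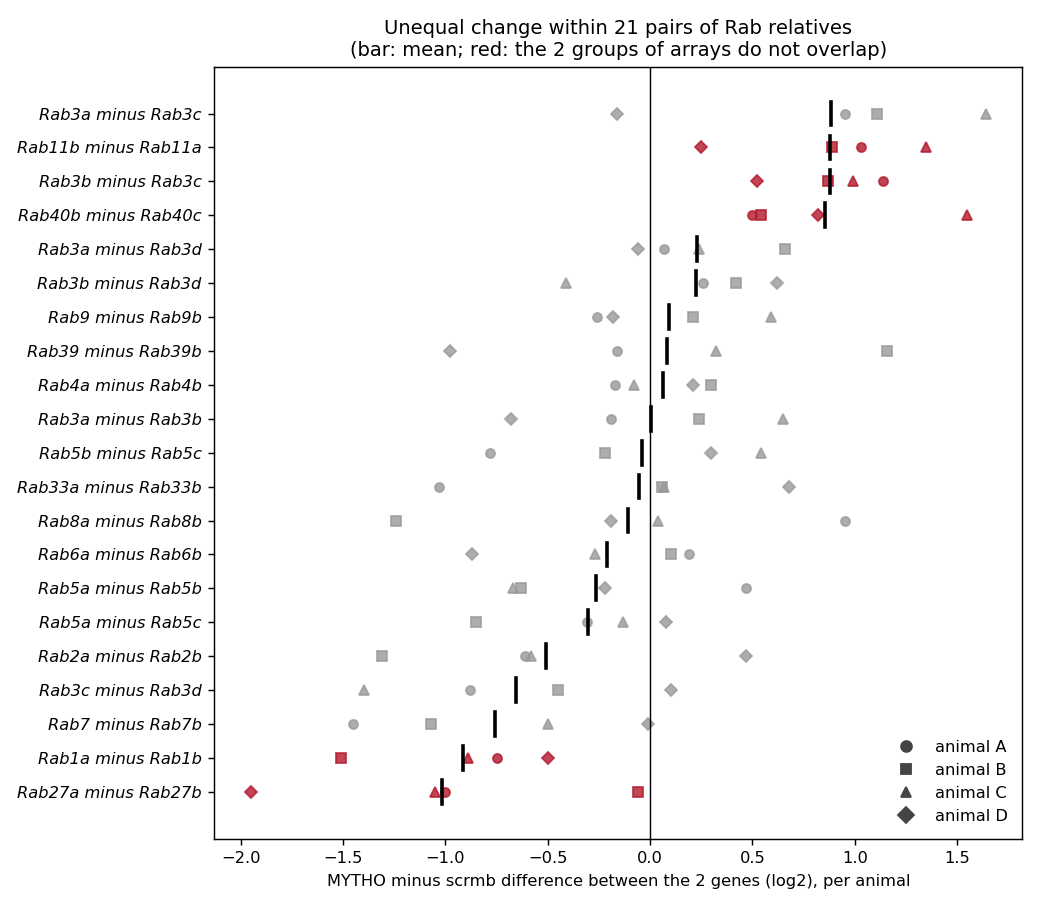
Change (MYTHO minus scrmb) of the log2 difference between the 2 genes of each of 21 pairs, with 1 symbol per animal and a bar at the mean. The 5 pairs in red, from *Rab27a* minus *Rab27b* at -1.02 to *Rab3b* minus *Rab3c* and *Rab11b* minus *Rab11a* at 0.88, are those whose groups of arrays do not overlap.

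The regulators of the Rab cycle under other names, taken from lists of known regulators, had medians of 0.03 to 0.12. When each array was left out in turn, the median ran from 0.07 to 0.19 for GAPs, from 0.05 to 0.17 for GEFs, from -0.03 (without scrmb B) to 0.14 (without scrmb A) for escort and prenylation genes, and from 0.02 to 0.10 for other-named effectors. Among the upper 75% of probe sets by signal the effector median was -0.0075. All 39 listed GAPs were on the array, with a median log2 fold change of 0.11 (26 positive, against -0.005 for all probe sets). At an unadjusted p under 0.05, 2 were higher and 1 was lower (background 4.81% and 7.58%). *Tbc1d7* carries a Rab GAP domain but is best known as a subunit of the TSC complex that restrains mTORC1. It had the highest change of all listed Rab regulators and effectors. It gave 7.17, 7.22, 6.87 and 7.26 in scrmb and 8.42, 8.70, 8.42 and 7.83 in MYTHO. The groups did not overlap, with MYTHO D again nearest to the controls. Its log2 fold change was 1.21 (SE 0.21, limma adjusted p = 0.0609). That p was 0.158 with animal as a block and ran from 0.0231 to 0.248 over all alternatives.

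*Grtp1*, a growth hormone regulated TBC domain protein, gave 7.41, 6.02, 6.19 and 6.54 in scrmb and 7.37, 8.13, 7.29 and 7.29 in MYTHO. Here scrmb A lay inside the MYTHO range, and the log2 fold change was 0.98 (limma adjusted p = 0.227). Without scrmb A and MYTHO D it was 1.35. *Evi5*, a GAP studied for Rab11, was the lower gene at -0.68 (adjusted p = 0.237). The count of higher GAPs was 4 with animal as a block, 5 without scrmb D and 6 without MYTHO A, where 4.94%, 5.65% and 4.44% of all probe sets were higher.

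Of 38 listed GEFs, 36 were matched, with a median of 0.12 (25 positive). At an unadjusted p under 0.05, 5 were higher, *Sbf1* (0.695), *Dennd5b* (0.66), *St5* (0.545), *Dennd1b* (0.52) and *Dennd6b* (0.475), against a background of 4.81%. Many of the listed GEFs, these 5 among them, carry a DENN domain, the domain of one class of Rab exchange factors. In *Sbf1*, *St5* and *Dennd1b* the groups did not overlap (background 2.59%), and adjusted p-values of the 5 ran from 0.249 to 0.366. The count of higher GEFs was 3 without scrmb A, without scrmb D or without MYTHO B (background 4.53%, 5.65% and 3.45%), and 1, *Sbf1*, without both scrmb A and MYTHO D (4.68%).

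The 11 escort and prenylation genes had a median of 0.03, with 1 higher and 1 lower at an unadjusted p under 0.05 (background 4.81% and 7.58%). When each array was left out, 0 to 3 were higher (3 without MYTHO C, where 4.72% of all probe sets were) and 0 or 1 lower (against 5.82% to 8.74%). *Rabggtb*, the catalytic subunit that prenylates Rabs, on a row shared with *Snord45c*, was lower at -0.43 (adjusted p = 0.389), a shift that did not pass an unadjusted p of 0.05 with animal as a block. *Fntb*, a subunit of farnesyltransferase, which prenylates other small GTPases, was higher at 0.51 (adjusted p = 0.336). Of 49 listed effectors under other names, 48 were matched, with a median of 0.03, and 1 was higher and 1 lower at an unadjusted p under 0.05 (background 4.81% and 7.58%). When each array was left out, 0 to 4 were higher (4 without MYTHO D, where 4.91% of all probe sets were) and 0 to 2 lower (2 without scrmb A, against 6.92%). *Mical1*, an actin-oxidising enzyme that binds Rabs, was higher at 0.60 (adjusted p = 0.360). *Ankfy1*, an effector of Rab5, gave 8.58, 8.65, 8.73 and 8.84 in scrmb and 8.21, 8.49, 8.36 and 7.77 in MYTHO. Its groups did not overlap, and the log2 fold change was -0.49 (adjusted p = 0.329). *Appl1*, another effector of Rab5, was the other of 2 effectors with non-overlapping lower groups (background 3.87%), at 11.96 to 12.12 in scrmb and 11.62 to 11.84 in MYTHO, and its log2 fold change of -0.295 did not pass an unadjusted p of 0.05 (adjusted p = 0.489).

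**Figure D4:**
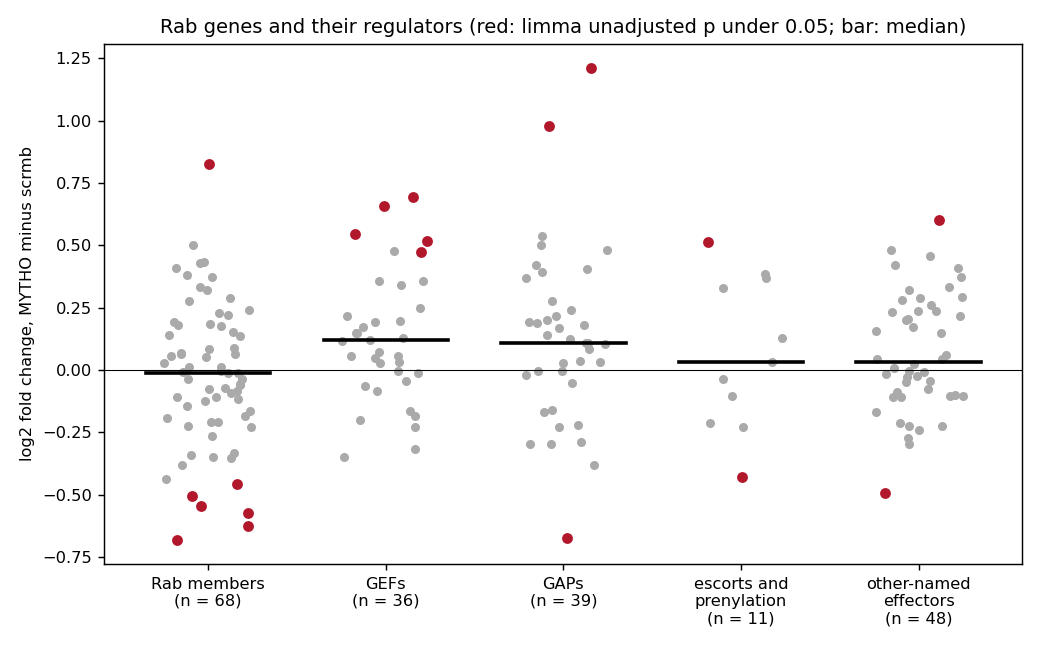
Log2 fold change (MYTHO minus scrmb) of each Rab gene and of the genes in 4 lists of Rab regulators and effectors, with black bars at the medians. Red points have an unadjusted limma p under 0.05, and the medians of the GEFs (0.12) and GAPs (0.11) lie above that of the Rab genes (-0.01).

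The signals of the members spanned most of the array. By mean log2 signal over 8 arrays, 24 of the 68 fell in the brightest 25% of all probe sets and 15 in the dimmest 25%. The brightest were *Rab7* at 18.05, *Rab10* at 16.45, *Rab2a* at 16.19, *Rab12* at 14.59 and *Rab5a* at 13.79, and the dimmest *Rab37* at 3.91 and *Rab11fip1* at 4.07. Probe sets differ in affinity, so these signals are levels within a probe set and do not order the genes by transcript abundance. No member was saturated.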

How the data were processed

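Total RNA of 8 GAS muscles was hybridised to Clariom S Mouse arrays. The authors deposited log2 signals from the Transcriptome Analysis Console version 4.0.1 with default settings, and per the file headers these are gene-level SST-RMA values with annotation release 36 on mm10. The submitters' processing notes list Expression Console and RMA as tools. The deposited log2 values have 2 decimals and a ceiling of 19.93. Fold changes, p-values, false discovery rates and group averages of the authors' own comparison were not used. SST-RMA assumes similar signal distributions on all arrays, so a shift common to most genes would not be seen.

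MYTHO minus scrmb was fitted to all 22206 probe sets with limma 3.58.1 under R 4.3.3 (lmFit and eBayes, unpaired, two-sided). This fit was checked on simulated data with independent arrays, which does not test the pairing. Benjamini-Hochberg adjustment ran over the whole table. Exact permutation tests used the 70 relabellings of the arrays. A gene's groups were called non-overlapping when every array of 1 group lay above every array of the other. A number in the column names, present once per group, was read as the animal and pairs the arrays as opposite legs. No label states this. Deviations from the group means correlated by 0.0027, -0.0014, 0.13 and 0.087 within animals A to D. Between arrays of different animals they correlated by -0.17 to 0.10. The block on animal was an alternative. The labels' replicate numbers match no column. The number of arrays limits the precision.

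The members, roles, gene lists, pairs and motifs were chosen with earlier results of these data known. Named genes were members with an unadjusted p under 0.05 or non-overlapping groups, the 5 brightest and 2 dimmest, 12 genes of muscle trafficking and autophagy, listed regulators with an unadjusted p under 0.05, and *Mytho*. Other genes were named after their values were seen. Some listed genes are not reported here and were taken off the lists before counts and medians were made. Promoters came from RefSeq (GRCm38.p6, the assembly of mm10), and all 68 symbols matched RefSeq genes. Alternatives were quantile normalization, median centring, keeping the upper 75% or 50% of probe sets by signal, array weights, trended robust eBayes, leaving out saturated or multi-gene rows, averaging probe sets, animal as a fixed or random block, a p threshold of 0.01, and leaving out arrays.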

Additional observations from a re-analysis of the deposited data

Results flagged for a closer look

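In 5 of 64 groups of 4 arrays tested, 1 array lay far from the other 3 by Dixon's criterion, which chance alone flags in about 1 of 20 groups. For *Mytho* it was MYTHO C at 8.80, against 8.08 to 8.20 on the other MYTHO arrays. For *Rab3c* it was MYTHO C at 4.14, against 4.75 to 4.84, and for *Rab5a* it was scrmb D at 13.67, against 13.87 to 13.90. Among regulators, *Grtp1* in MYTHO B was at 8.13, against 7.29 to 7.37, and *St5* in scrmb A at 5.73, against 6.29 to 6.34. The cause of these gaps was not tested.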

How the results depend on the processing

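The 4 arrays per group limit the member counts. Members higher at an unadjusted p under 0.05, 1 as reported, were 3 with quantile normalization, median centring or animal as a replicate block (4.41%, against 5.80%, 6.09% and 4.94% of all probe sets), 2 with a random block or in the upper 75% or 50% of probe sets (against 5.30%, 5.68% and 6.91%), and 1 to 4 when each array was left out (4 without MYTHO C, 5.88% against 4.72%). Those lower, 6 as reported, were 1 at a p threshold of 0.01 (1.47%, against 2.88%). They were 5 with the replicate block or median centring (7.35%, against 7.66% and 6.34%). In the upper 75% or 50% of probe sets they were also 5 (9.43% and 11.6%, against 8.48% and 9.11%). They were 7 with quantile normalization, a random block, array weights or averaged probe sets (10.3%, against 6.89%, 8.09%, 7.93% and 7.47%). With eBayes trend and robust they were 8 (11.8%, against 7.80%). When each array was left out they were 2 to 6 (2 without scrmb C, 3 without scrmb B or MYTHO C, against 5.82%, 6.26% and 6.54%). Non-overlapping higher members, 1 as reported, were 2 with quantile normalization or median centring and 1 to 5 when each array was left out (5 without MYTHO C, 7.35% against 4.62% of all probe sets). Non-overlapping lower members, 4 as reported, were 3 in the upper 75% or 50% of probe sets and 4 to 7 when each array was left out (7 without scrmb A, 10.3% against 5.94%). With fewer arrays more probe sets do not overlap, 3.58% to 5.64% higher and 5.01% to 7.84% lower with 1 left out, against 2.59% and 3.87% with all. Without scrmb A and MYTHO D together, chosen after seeing the data, 3 were higher and 4 lower by p (4.68% and 6.54% of all probe sets), and 4 higher and 7 lower were non-overlapping (7.22% and 8.84% of all probe sets). Members with an adjusted p under 0.05 numbered 1, *Rab11b*, with eBayes trend and robust and 0 otherwise. Adjusted p ran from 0.0455 to 0.374 for *Rab11b* and from 0.0523 to 0.374 for *Rab1a* over the alternatives. Changes near 0 that reversed, as ranges over left-out arrays, were *Rab8a* (-0.289 to 0.0175), *Rab11a* (-0.177 to 0.0233), *Rab12* (-0.154 to 0.119), *Rab24* (-0.0317 to 0.312) and *Rab3gap2* (-0.0483 to 0.055, and 0.03 with median centring). Without scrmb A and MYTHO D, *Rab24* was at -0.0767 and *Rab3gap1* at 0.0167. Of 665 values of single genes under alternatives, 570 kept direction and side of the threshold, 73 lost an unadjusted p under 0.05, 12 gained it and 10 reversed. The causes were not tested.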
